A study of Mus musculus with 25 samples.

Results

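DNA methylation in the mammary fat pads of mice on intermittent calorie restriction (ICR, n = 5) was compared with that of mice kept on a control diet (Control, n = 5). These are 10 of the 25 mice of the series, and they were taken by the diet named in their labels. Methylation had been measured by reduced representation bisulfite sequencing (RRBS), in which bisulfite treatment marks unmethylated cytosines and only short MspI fragments rich in CpG sites are read. All mice were C57BL/6N of wild-type genotype. Control mice were given the diet D12450J. ICR mice first ate a 60% high-fat diet, D12492, became obese and then lost weight under intermittent restriction, a schedule whose depth and timing the labels do not give. At 25 weeks after the start, mice of both groups received E0771 cells, a mouse mammary cancer line, in the 4th mammary fat pad. The DNA came from the opposite, 9th pad at the endpoint. The labels call this tissue normal, while the sample titles hold the word tumor and the cell type field names mammary cancer cells, so the labels do not agree among themselves on the material. Control mice were not put on the high-fat diet, so earlier obesity, weight loss and restriction cannot be told apart in this comparison.

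In mammals DNA methylation sits mainly on cytosines that precede a guanine (CpG). It is copied to the new strand at each cell division by a maintenance methyltransferase, set anew by Dnmt3 enzymes and removed by way of oxidation by Tet enzymes. CpG islands, the CpG-dense stretches at many promoters, are usually unmethylated, and most other CpGs are methylated. In adipose tissue methylation differs between adipocytes, stromal cells and leukocytes, so a pad's profile carries its cell makeup as well as the state of each cell.

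Some windows around transcription starts show how the measured CpGs lie in sequence. They were picked from the 10 lower and 10 higher RefSeq promoter windows of smallest p, 4 with lower and 3 with higher levels in ICR. The letters are from RefSeq on GRCm38.p6, the assembly called mm10, from 250 bases before to 30 bases after the start, in the direction of the gene. Capitals mark the CpGs that had values in this comparison.
Hyal1 (chr9:107576700-107576979, plus strand): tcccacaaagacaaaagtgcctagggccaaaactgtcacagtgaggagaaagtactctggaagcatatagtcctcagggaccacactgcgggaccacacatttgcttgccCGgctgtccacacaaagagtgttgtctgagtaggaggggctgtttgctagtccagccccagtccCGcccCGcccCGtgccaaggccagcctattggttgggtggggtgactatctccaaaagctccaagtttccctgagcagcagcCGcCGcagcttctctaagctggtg
Slc25a25 (chr2:32424037-32424316, minus strand): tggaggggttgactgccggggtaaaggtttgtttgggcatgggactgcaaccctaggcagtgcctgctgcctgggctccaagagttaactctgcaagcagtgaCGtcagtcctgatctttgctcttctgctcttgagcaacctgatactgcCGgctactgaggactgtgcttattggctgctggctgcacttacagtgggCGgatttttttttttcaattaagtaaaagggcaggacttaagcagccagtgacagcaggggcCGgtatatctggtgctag
Eva1b (chr4:126147753-126148032, plus strand): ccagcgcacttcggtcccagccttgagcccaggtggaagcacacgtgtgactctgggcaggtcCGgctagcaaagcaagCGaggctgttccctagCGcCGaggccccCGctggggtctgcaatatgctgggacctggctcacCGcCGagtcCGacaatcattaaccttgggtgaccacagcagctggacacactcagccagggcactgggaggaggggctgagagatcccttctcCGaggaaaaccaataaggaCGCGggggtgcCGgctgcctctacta
Cldn15 (chr5:136967619-136967898, plus strand): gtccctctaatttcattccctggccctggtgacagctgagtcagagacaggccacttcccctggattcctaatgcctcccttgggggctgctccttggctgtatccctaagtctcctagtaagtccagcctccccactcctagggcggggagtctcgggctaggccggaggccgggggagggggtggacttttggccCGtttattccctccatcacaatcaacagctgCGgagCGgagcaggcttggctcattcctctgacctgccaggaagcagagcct
Fam110a (chr2:151973365-151973644, minus strand): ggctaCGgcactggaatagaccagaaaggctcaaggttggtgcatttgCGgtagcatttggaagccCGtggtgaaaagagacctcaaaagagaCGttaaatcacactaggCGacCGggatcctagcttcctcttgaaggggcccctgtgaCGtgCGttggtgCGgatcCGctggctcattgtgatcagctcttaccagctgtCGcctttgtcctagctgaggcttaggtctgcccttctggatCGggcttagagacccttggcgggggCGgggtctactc
Rps6ka1 (chr4:133873006-133873285, minus strand): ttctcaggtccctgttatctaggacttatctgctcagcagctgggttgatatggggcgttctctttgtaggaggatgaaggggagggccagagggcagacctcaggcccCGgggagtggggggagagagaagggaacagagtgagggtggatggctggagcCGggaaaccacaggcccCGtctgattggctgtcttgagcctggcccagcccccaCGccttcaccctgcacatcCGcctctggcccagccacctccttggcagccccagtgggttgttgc
Cd27 (chr6:125236998-125237277, minus strand): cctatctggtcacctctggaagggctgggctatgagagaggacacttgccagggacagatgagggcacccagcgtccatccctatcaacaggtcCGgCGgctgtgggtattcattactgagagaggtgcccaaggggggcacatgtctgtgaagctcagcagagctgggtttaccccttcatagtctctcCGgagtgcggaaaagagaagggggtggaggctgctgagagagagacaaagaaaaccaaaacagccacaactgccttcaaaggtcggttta
The motif ccgg, where MspI cuts, was searched on both strands, and being its own reverse complement it reads alike on each. It occurred in each of these sequences and in 51.5% of the 31396 RefSeq windows of this length on chromosomes 1 to 19. The median window held 7 CpGs. RRBS reads MspI fragments, and the windows shown come from the 599 with measured CpGs that were tested. Finding the motif in them was therefore largely fixed by the method and is no enrichment over the 51.5%.

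Hyal1 encodes a hyaluronidase, an enzyme that breaks down the matrix polymer hyaluronan. Its window, with 7 measured CpGs including 1 past the printed end, had levels of 9.75%, 6.00%, 9.28%, 7.02% and 13.9% in the ICR mice and 22.6%, 27.5%, 15.5%, 21.2% and 22.3% in the Control mice. All ICR mice were below all Control mice, and the difference was -12.6 points (SE 2.24), with an adjusted p of 0.0526 (limma, Benjamini-Hochberg over 599 windows), just above the threshold of 0.05. Of its CpGs, the one at position -71 from the start had 8.84% in ICR and 32.2% in Control, and the one at -66 had 2.32% and 9.24%. Eva1b, a little-studied membrane protein gene, had 24.2% ± 4.64 (SD, n = 5) in ICR and 36.8% ± 3.20 (SD, n = 5) in Control over 12 CpGs. At position -108 the level was 27.7% in ICR and 57.3% in Control, and at the next CpG downstream it was 13.9% and 19.7%. Neighbouring cytosines in 1 window therefore differed by -29.6 and -5.81 points.

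Slc25a25, a mitochondrial ATP-magnesium and phosphate carrier, had a window level of 10.7% in ICR (n = 4) and 22.2% in Control (n = 5), a difference of -11.5 points (SE 1.93). The window of Cldn15, a tight junction claudin, was at 39.2% in ICR and 67.5% in Control, but over 3 CpGs and with a value in only 3 mice of each group. Higher window levels in ICR were seen for Fam110a, a centrosome-associated protein gene, with 17.5%, 22.6%, 16.2%, 15.4% and 15.1% in the ICR mice and 7.33%, 11.3%, 9.54%, 7.95% and 9.54% in the Control mice. The groups did not overlap there, each of the 13 CpGs had a higher mean in ICR, and the adjusted p was 0.0526 (limma). Rps6ka1, a ribosomal S6 kinase of the MAP kinase pathway, stood at 36.8% ± 8.35 (SD, n = 5) in ICR and 19.9% ± 7.06 (SD, n = 5) in Control, with overlap between the groups. Cd27, a costimulatory receptor of lymphocytes, stood at 54.2% ± 6.15 (SD, n = 4) in ICR and 38.2% ± 6.42 (SD, n = 4) in Control. Of the 599 windows, 82 had p under 0.05 with lower and 21 with higher levels in ICR. None (0%) passed at an adjusted p under 0.05 by limma.

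The deposited table gives a level per CpG and mouse. The comparison used the 207817 CpGs on chromosomes 1 to 19 with an average coverage of 10 reads or more and a value in at least 3 mice of each group. They lie in or near 12384 named genes. Their average coverage, over 21 libraries of the series, had a median of 38.4 reads and quartiles of 24.0 and 65.6 reads; the depth of each library is unknown. ICR mouse 102 had a value at 72.7% of these CpGs, Control mouse 1 at 63.9% and Control mouse 10 at 83.8%, and the other 7 mice at 93.3% to 99.7%. Pearson correlations of levels across CpGs, a description over sites that share a library, were 0.942 to 0.973 between Control mice, 0.941 to 0.965 between ICR mice and 0.903 to 0.969 between the groups. At 13242 CpGs with mean levels under 5% in 11 mice of the other diet groups, the 10 mice had means of 1.27% to 2.11%, so all of them were low at such sites. Methylation does not measure expression, and the tissue label could not be checked against marker transcripts. The promoter of Cebpa, a master regulator of adipocytes, was nearly free of methylation in both groups (1.54% in ICR and 1.99% in Control). Housekeeping promoters were so too (medians of 0.505% and 0.626%), so this value does not identify the tissue. Over the 7 promoters of adipocyte genes tested, the medians were 36.5% in ICR and 43.6% in Control, but the median of their differences was -0.448 points. Mouse means over the 5 of them measured in all mice overlapped, at 34.8% to 43.3% in ICR and 37.1% to 45.6% in Control.

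Mean methylation was lower in the ICR pads. Over the 113704 CpGs with a value in all 10 mice it was 55.3% in ICR mouse 102, 53.6% in 103, 56.1% in 105, 56.4% in 106 and 57.4% in 112. In Control it was 59.1% in mouse 1, 60.8% in 2, 58.3% in 5, 56.6% in 10 and 58.7% in 13. Thus 4 of the 5 ICR mice were below every Control mouse, and ICR 112 was above Control 10 alone. The means were 55.8% ± 1.43 (SD, n = 5) and 58.7% ± 1.501 (SD, n = 5), a difference of -2.92 points (exact permutation test, two-sided, p = 0.0159). With 5 against 5 mice this test cannot go below 0.00794. In these bulk samples a different share of cells of a type and a different level within each cell cannot be told apart. The labels do not say how the mice were housed, so litters or cages shared by mice of a group cannot be seen.

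The difference was present at every distance from CpG islands. Within islands, where methylation is low, it was 24.8% ± 0.748 (SD, n = 5) in ICR and 27.0% ± 1.11 (SD, n = 5) in Control. All 5 ICR mice, at 23.6% to 25.5%, were below the Control range of 25.9% to 28.8%. This difference of -2.19 points had p = 0.00794, the smallest possible (exact permutation test, two-sided; adjusted p = 0.0212 over 4 classes). Shores, the flanks of islands, were at 44.0% and 46.7% (-2.75 points, exact permutation p = 0.0238). Shelves, the next zone outward, were at 64.4% and 68.0% (-3.55 points, exact permutation p = 0.0159), and the open sea, far from islands, at 69.4% and 72.6% (-3.15 points, exact permutation p = 0.0159). Their adjusted p-values were 0.0212 to 0.0238. Set against islands mouse by mouse, the extra difference was -0.555 points for shores, -1.36 for shelves and -0.957 for the open sea, and none of the 3 passed (exact permutation p = 0.230, 0.0794 and 0.103). The classes were thus not shown to differ from islands in points.

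**Figure D1:**
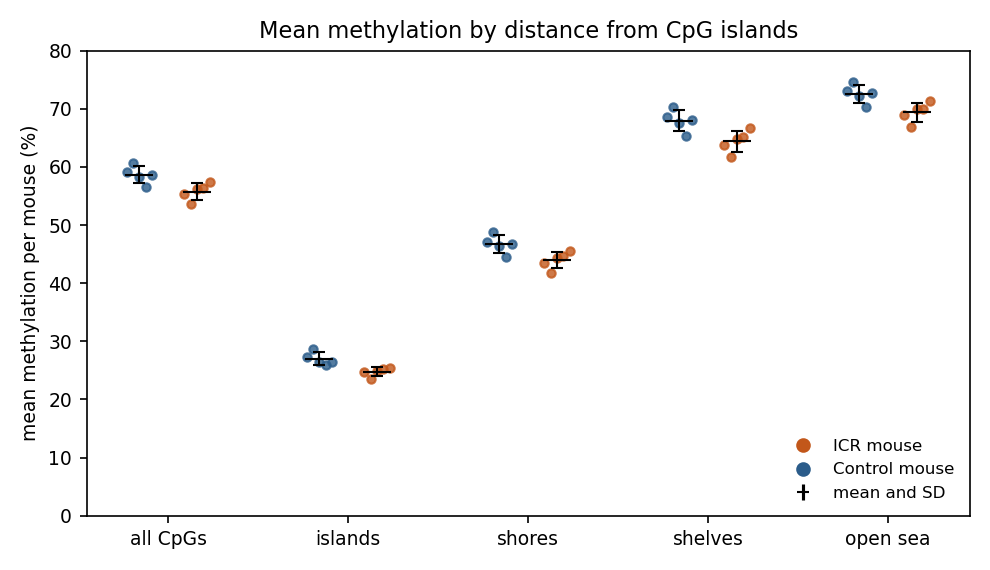
Mean methylation in percent (y axis) per mouse over all CpGs and by distance from CpG islands (x axis); points are mice, bars the mean and SD. In islands the 5 ICR mice lie between 23.6% and 25.5%, below the 5 Control mice; in the other classes the lowest Control mouse lies among the ICR mice.

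Sites of middle methylation had the widest gap in points. CpGs were binned by their mean level in 11 mice of the other diet groups, so the bins did not use the values compared. Those of 30% to 50% were at 45.1% ± 2.54 (SD, n = 5) in ICR and 50.6% ± 2.55 (SD, n = 5) in Control, -5.45 points. Sites of 10% to 30% differed by -4.03 points and sites of 50% to 70% by -4.44 points (exact permutation p = 0.0159 for each of these 3 bins, adjusted p = 0.0238 over 6 bins). Nearly unmethylated sites, under 10%, were at 3.44% and 4.23%, and sites of 70% to 90% at 83.9% and 86.1%. At the top, over 90%, the levels were 93.0% and 93.6% and the test did not pass (exact permutation p = 0.103). Differences between bins were not tested. Levels above 80% were found at 28.1% to 35.5% of CpGs in the ICR mice and at 32.6% to 44.7% in the Control mice, ranges that overlap. Without Control mouse 2, no bin had an adjusted p under 0.05 (5 bins passed with all 10 mice).

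**Figure D2:**
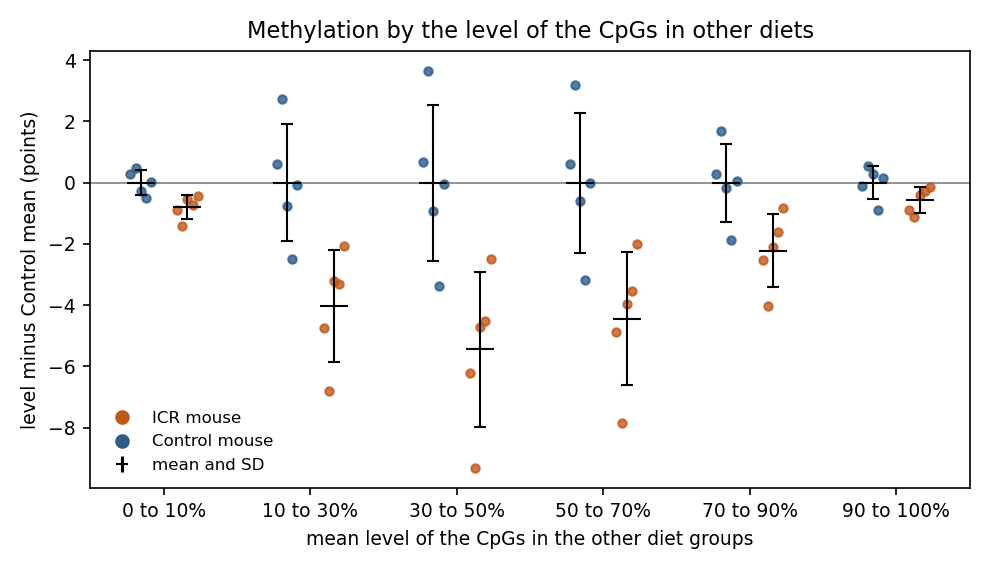
Methylation level minus the Control mean of the bin, in points (y axis), for CpGs binned by their mean level in the other diet groups (x axis); points are mice, bars the mean and SD. The ICR means lie below 0 in each bin, by 5.45 points at 30% to 50% and by 0.565 points above 90%.

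The lower mean in ICR ran through every part of genes that could be tested. First exons were at 37.2% in ICR and 39.6% in Control (-2.40 points), 5'UTRs at 29.2% and 31.9% (-2.69 points), gene bodies at 59.8% and 62.8% (-3.02 points) and 3'UTRs at 58.6% and 61.9% (-3.25 points). In each of these 4 parts 4 of 5 ICR mice were below all Control mice (exact permutation p = 0.0159, adjusted p = 0.0198 over 5 parts). CpGs outside genes were at 61.8% and 63.9% (-2.09 points, exact permutation p = 0.0238). The classes upstream of starts held too few CpGs, 487 and 305, for the minimum of 500. Within first exons the island CpGs were at 20.1% in ICR and 21.9% in Control, and the open sea CpGs at 62.5% and 65.3%.

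By chromosome the mean was lower in ICR on all 19 autosomes, and 18 passed (exact permutation tests, adjusted p of 0.0201 to 0.0251). The exception was chromosome 16, at 53.7% and 54.7% (-1.03 points, exact permutation p = 0.0556). Chromosome 4 had the largest difference of the 19, -3.38 points. Without Control mouse 1 or Control mouse 2 no chromosome passed. On chromosome X, outside the set of CpGs compared, 1723 CpGs gave 47.3% and 48.3% (-0.992 points, exact permutation p = 0.206).

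Few single features stood out of this broad difference. At 25135 CpGs p was under 0.05 with a lower level in ICR, at 5473 with a higher level, and none of the 207817 (0%) passed at an adjusted p under 0.05 (limma; smallest adjusted p 0.0850). Of 24648 regions, clusters of at least 3 CpGs with gaps of at most 100 bp, 4883 had p under 0.05 lower and 809 higher, and again none (0%) passed (limma, smallest adjusted p 0.0536, shared by 14 regions). Of 3839 promoters, here the CpGs that the authors assign to the upstream, 5'UTR and first exon classes of a gene, 1 passed (0.026%). Promoters with p under 0.05 were lower in 16.9% and higher in 2.45% of cases. Of 9498 genes, with all their CpGs pooled, none passed (0%; limma, smallest adjusted p 0.111), while 22.3% had p under 0.05 lower and 2.14% higher. The median difference was -1.95 points over CpGs, -2.65 over regions, -1.01 over promoters and -1.88 over genes. Lower levels in ICR made up 65.6%, 74.0%, 69.5% and 77.0% of these features.

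The balance of lower and higher features depended on the scale. When each library was centred on its own mean, which adds 2.92 points to the difference of a feature measured in all 10 mice and another amount where mice are missing, the share of lower features among those with p under 0.05 went from 82.1% to 51.9% for CpGs and from 85.8% to 53.1% for regions. For promoters it went from 87.3% to 23.2%, and for genes from 91.3% to 32.8%. So a direction below is that of the level as deposited, and a gene measured in all 10 mice whose difference is smaller than 2.92 points in size lies above the mean shift.

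The promoter that passed belongs to Pyroxd2, which encodes a mitochondrial protein with an oxidoreductase domain. Its 11 CpGs all lie in the first exon, outside islands (chr19:42752352-42752763, mm10, average coverage 31.3 reads). The levels were 19.3%, 19.9%, 26.5%, 18.8% and 26.8% in the ICR mice and 40.7%, 41.3%, 40.4%, 39.7% and 34.8% in the Control mice, given here and below in the order ICR 102, 103, 105, 106, 112 and Control 1, 2, 5, 10, 13. The highest ICR mouse, at 26.8%, was below the lowest Control mouse, at 34.8%. The means were 22.3% ± 4.03 (SD, n = 5) in ICR and 39.4% ± 2.64 (SD, n = 5) in Control, and the level fell by 17.1 points (SE 2.03; limma, adjusted p = 0.0462). Over all 44 CpGs of the gene the levels were 51.4% in ICR and 64.4% in Control. Of the other groups, Obese mouse 22 was at 24.0%. The mean was 19.7% on an unrestricted low-fat diet (LFD, n = 3), with mice from 2.33% to 40.2%. It was 12.8% on a low-fat diet with 30% restriction (LFCR, n = 4), with mice from 0.579% to 30.5%. On a Mediterranean-style diet with 30% restriction (MCR) it was 0.692%, from 2 mice with a value. The call held in 10 of 18 alternative settings with adjusted p-values of 0.00537 to 0.360, and was lost without ICR mouse 102, 103, 105 or 106, without Control mouse 1, 2 or 5, and with the spread shared with the other groups, which gave the highest of these, 0.360. The level was lower in ICR under every one of these settings.

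The next promoters had adjusted p-values of 0.066 to 0.0761 (limma), short of the threshold. Hhatl, a relative of hedgehog acyltransferase, had 70.6%, 64.0%, 71.7%, 66.9% and 67.1% in the ICR mice and 81.6%, 82.5%, 77.9%, 76.7% and 78.6% in the Control mice over 9 CpGs (chr9:121790670-121792429). All ICR mice were below all Control mice, and the difference of means was -11.4 points. Sept9 is a septin of the cytoskeleton whose methylated form in blood is a known tumour marker. Its 16 promoter CpGs, 81.25% of them in first exons, are spread over chr11:117199678-117332415. Their levels were 34.0%, 30.6%, 33.4%, 34.5% and 38.4% in the ICR mice and 50.02%, 47.9%, 45.5%, 40.1% and 49.7% in the Control mice. There the difference was -12.5 points (SE 2.08), and Control mouse 10 at 40.1% lay closest to the ICR mice. With its first exon left out the Sept9 promoter differed by -1.80 points (p above 0.05). Socs3 encodes a feedback inhibitor of cytokine and leptin signalling. Its 27 CpGs, 77.8% of them in an island, had levels of 13.3%, 13.3%, 13.1%, 16.6% and 18.6% in the ICR mice and 22.2%, 27.0%, 24.3%, 22.1% and 21.3% in the Control mice. No ICR mouse reached the Control range, and the difference was -8.39 points (SE 1.46) with an adjusted p of 0.0761 (limma). Without its first exon the Socs3 promoter differed by -0.0845 points (p above 0.05).

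Further promoters with non-overlapping groups were those of Otop2, a proton channel (29.1% in ICR and 35.4% in Control), Adcy7, an adenylyl cyclase (49.4% in ICR and 59.0% in Control), and Ankrd9 (81.9% in ICR and 90.8% in Control). Without its first exon the Adcy7 promoter differed by -0.0322 points (p above 0.05). Pdgfrb, the PDGF receptor of pericytes and stromal cells, was low in both groups, at 10.6%, 8.73%, 7.22%, 12.2% and 8.86% in the ICR mice and 14.8%, 15.7%, 15.4%, 14.0% and 16.9% in the Control mice. Cldn15 had the largest difference among the promoters named, -27.8 points (SE 3.20), with 46.8% in ICR and 74.6% in Control. It rests on 4 ICR and 3 Control mice and an average coverage of 13.8 reads. Counted over all promoters, 206 (5.37%) had every ICR mouse below every Control mouse and 23 (0.599%) every ICR mouse above.

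Promoters with higher levels in ICR had smaller differences relative to their spread, with adjusted p-values of 0.124 to 0.126 (limma). Prtn3, a serine protease of neutrophil granules, had 16.9%, 24.1%, 16.9%, 16.7% and 26.0% in the ICR mice and 8.77%, 9.13%, 13.8%, 9.81% and 10.0% in the Control mice. All 5 ICR mice were above all Control mice, but the promoter has only 3 CpGs. Myog, the myogenin gene that drives muscle differentiation, had 84.6%, 84.5%, 83.4%, 76.5% and 75.3% in the ICR mice and 73.2%, 63.5%, 68.5%, 73.1% and 67.1% in the Control mice. There too the groups were apart, with a difference of 11.8 points (SE 2.58). Rasal3, a Ras GTPase-activating protein of lymphoid cells, had 30.5%, 47.7%, 45.3%, 30.6% and 30.5% in the ICR mice and 19.7%, 9.31%, 15.8%, 26.0% and 18.8% in the Control mice, and ICR mice 103 and 105 stood well above the other ICR mice. These 3 promoters lie outside islands except for 33.3% of the CpGs at Prtn3.

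Smaller differences with tight spread were measured at Tpbgl, where 19 CpGs gave 23.2% ± 0.719 (SD, n = 5) in ICR and 20.9% ± 0.596 (SD, n = 5) in Control, and at Tbc1d17, a Rab GTPase-activating protein, with 41.1% ± 0.746 (SD, n = 5) in ICR and 37.8% ± 1.44 (SD, n = 5) in Control. With CpGs measured in all 10 mice alone, Tpbgl differed by 1.06 points (p above 0.05). The promoter of Il4i1, an amino acid oxidase of immune cells, shares CpGs with Tbc1d17 and had 38.5% in ICR and 35.2% in Control. Kcnj11, the pore subunit of the ATP-sensitive potassium channel, was at 37.1% in ICR and 30.9% in Control; with its first exon left out it was 1.48 points lower in ICR. Hspb9 (11.3% in ICR and 5.53% in Control) and Cdc42ep5 (37.9% in ICR and 30.1% in Control) overlapped between groups, the latter through ICR mouse 112.

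**Figure D3:**
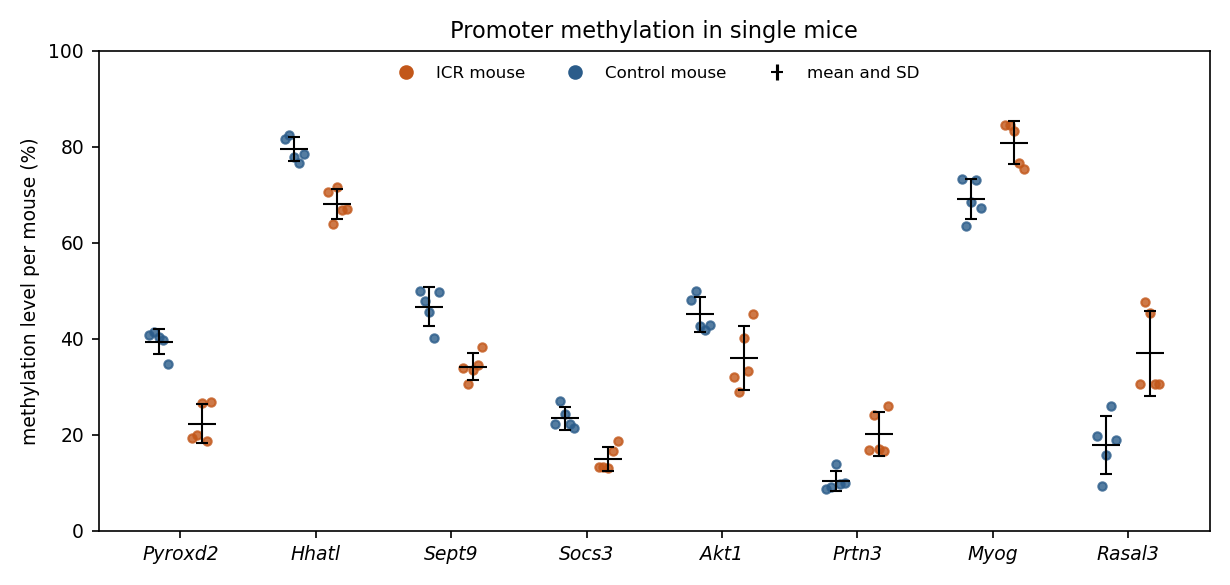
Promoter methylation in percent (y axis) in single mice for 8 genes (x axis); points are mice, bars the mean and SD. At Pyroxd2 the ICR mice lie between 18.8% and 26.8% and the Control mice between 34.8% and 41.3%; at Akt1 the groups overlap, and at Prtn3, Myog and Rasal3 the ICR mice lie above.

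None of the regions of smallest p passed the test, and the lower ones named here shared an adjusted p of 0.0536 (limma). Counted over all 24648 regions, 1526 had every ICR mouse below every Control mouse and 242 every ICR mouse above. Bahcc1, a chromatin-associated gene, held 3 CpGs (chr11:120243241-120243270) with 62.0%, 56.6%, 57.7%, 64.2% and 61.5% in the ICR mice and 79.4%, 87.2%, 77.0%, 79.0% and 84.2% in the Control mice. The difference was -21.0 points (SE 2.42), and the ICR range ended at 64.2%, well under the lowest Control mouse at 77.0%. Efhd2, a calcium-binding protein of immune and neural cells, had the widest gap of these, with 35.1%, 27.6%, 38.7%, 39.9% and 41.3% in the ICR mice and 60.7%, 73.3%, 78.2%, 54.8% and 71.5% in the Control mice (chr4:141867049-141867090). The Control mice were themselves spread over 54.8% to 78.2% at this site.

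At Sept9 a first exon region of 9 CpGs and high average coverage, 168 reads (chr11:117232265-117232363), had 29.2%, 31.3%, 28.3%, 31.1% and 42.3% in the ICR mice and 60.6%, 61.1%, 57.6%, 46.9% and 61.4% in the Control mice. The difference was -25.1 points (SE 3.43), and the closest pair was ICR mouse 112 at 42.3% and Control mouse 10 at 46.9%. This region lies within the span of the Sept9 promoter given above, so it is not independent of that promoter. Rxra encodes the retinoid X receptor alpha, the partner of many nuclear receptors. Its region (chr2:27695272-27695324) had 66.6% to 69.4% in ICR and 79.0% to 87.7% in Control. Cuedc1 (chr11:88180688-88180803) had 34.9% in ICR and 54.4% in Control, and Bcl11b, a zinc finger regulator of T cell and neural fate (chr12:107960368-107960496), had 60.6% in ICR and 74.9% in Control, all without overlap.

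Higher regions shared an adjusted p of 0.0684 (limma). Tmem132a, a transmembrane protein gene (chr19:10863089-10863152), had 66.5%, 63.5%, 67.1%, 59.3% and 67.4% in the ICR mice and 52.6%, 37.8%, 47.0%, 53.6% and 37.8% in the Control mice. Ppard encodes the fatty acid-sensing nuclear receptor PPAR delta. A shore region of 10 CpGs in its body (chr17:28298104-28298444) had 66.7%, 75.4%, 70.8%, 69.1% and 66.0% in the ICR mice and 55.8%, 51.7%, 59.9%, 61.1% and 57.6% in the Control mice. In both regions the groups were apart, with means of 64.8% in ICR and 45.8% in Control at Tmem132a and of 69.6% in ICR and 57.2% in Control at Ppard. At Kcnj11 4 first exon CpGs (chr7:46099591-46099618) had 51.7% ± 6.22 (SD, n = 5) in ICR and 32.0% ± 7.39 (SD, n = 5) in Control. Slc12a3, the thiazide-sensitive sodium chloride cotransporter (chr8:94337837-94337895), had 53.3% in ICR and 42.0% in Control, and Galnt6, a glycosyltransferase that starts O-linked glycans (chr15:100720119-100720311), had 36.8% in ICR and 23.8% in Control. Csmd2 (chr4:128241287-128241449) had 37.7% in ICR and 18.6% in Control, from 4 ICR and 3 Control mice.

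**Figure D4:**
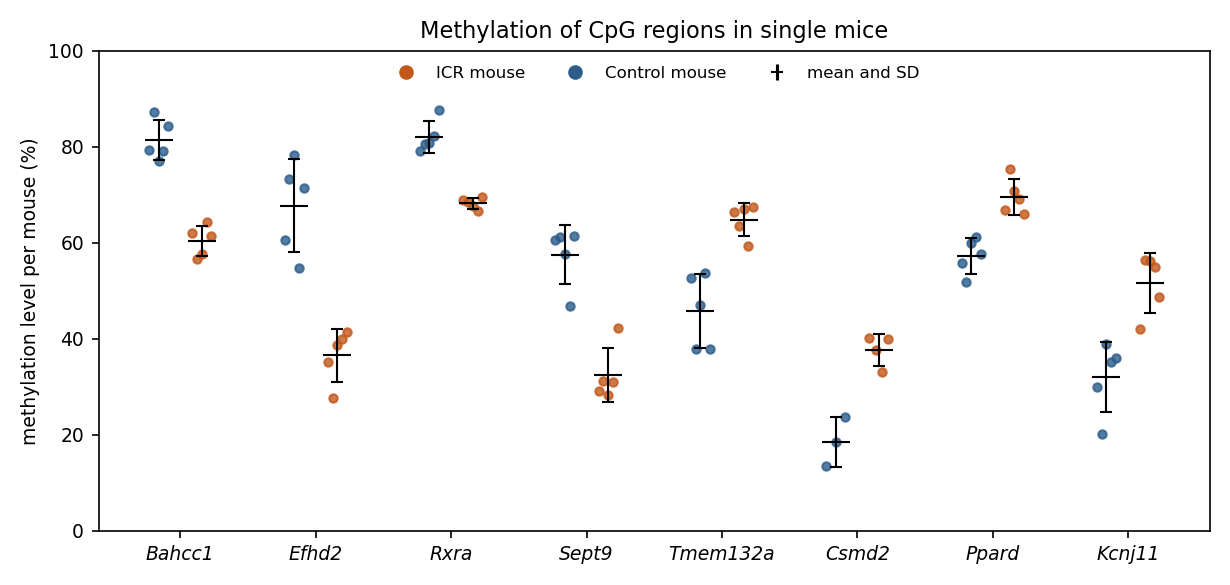
Methylation in percent (y axis) of 8 CpG regions (x axis, by gene) in single mice; points are mice, bars the mean and SD. ICR and Control mice do not overlap at any of the 8, which were picked from the regions of smallest p, a choice that favours such separation. Bahcc1, Efhd2, Rxra and Sept9 are lower and Tmem132a, Csmd2, Ppard and Kcnj11 higher in ICR.

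The number of regions past the threshold was sensitive to the set of mice and CpGs. It was 548 when only CpGs with a value in all 10 mice were used, 473 of them lower and 75 higher in ICR. Asking for 5 or more CpGs gave 290, and gaps of at most 50 bp gave 21. Leaving out ICR mouse 112 gave 671 and leaving out Control mouse 10 gave 1280, whereas leaving out any of the other 8 mice gave 0. Promoters passing were 12 with CpGs measured in all 10 mice, among them those of Pyroxd2, Hhatl, Otop2, Socs3, Pdgfrb, Sept9, Ankrd9 and Adcy7. They were 8 without ICR mouse 112 and 15 without Control mouse 10. These are the mice of highest mean in ICR and of lowest mean in Control.

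Single CpGs of smallest p reached adjusted p-values of 0.0850 to 0.107 (limma). A CpG in the 3'UTR of Hhatl (chr9:121784097) had 60.7%, 63.2%, 63.5%, 67.2% and 66.0% in the ICR mice and 82.6%, 87.7%, 81.1%, 84.7% and 84.2% in the Control mice. Another in the body of Sorcs2, a sorting receptor of the nervous system, was at 61.1% in ICR and 80.7% in Control. Cux2, a homeobox gene, was at 43.6% in ICR and 62.6% in Control, with all ICR mice between 42.7% and 45.1%. Ptgir, the prostacyclin receptor, was at 14.8% in ICR and 40.5% in Control. On the higher side was Prkag2, a regulatory subunit of the energy sensor AMP-activated kinase, with 33.3%, 29.1%, 27.3%, 26.7% and 22.6% in the ICR mice and 8.82%, 8.51%, 14.4%, 7.14% and 10.6% in the Control mice. Prdm16, the switch gene of brown and beige fat, had a body CpG at 37.0% ± 3.27 (SD, n = 5) in ICR and 20.3% ± 3.11 (SD, n = 5) in Control. Rhof (79.4% in ICR and 65.1% in Control), Camsap3 (58.8% in ICR and 39.1% in Control) and Srcin1 (21.1% in ICR and 9.45% in Control) completed the set.

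Pooled over whole genes, the lowest p-values shared an adjusted p of 0.111 (limma). Counted over all 9498 genes, 704 had every ICR mouse below every Control mouse and 76 every ICR mouse above. Alox8, a lipoxygenase, was at 76.3% in ICR (n = 4) and 89.8% in Control (n = 3) over 4 CpGs, and Tnfrsf1a, the main receptor of tumour necrosis factor, at 49.8% ± 2.17 (SD, n = 5) in ICR and 56.8% ± 1.44 (SD, n = 5) in Control. Hyal3, a hyaluronidase gene of the same family as Hyal1, had 46.9%, 47.1%, 45.1%, 51.0% and 53.4% in the ICR mice and 55.8%, 58.1%, 59.9%, 59.9% and 57.9% in the Control mice, and the groups were apart. Tppp3, a tubulin-binding protein gene, was at 46.9% ± 0.958 (SD, n = 5) in ICR and 52.1% ± 1.14 (SD, n = 5) in Control. Its difference of -5.13 points was -2.98 without ICR mouse 106, -3.39 without ICR mouse 105, -3.40 without ICR mouse 112, and -3.07 with CpGs of 20 or more reads or with values in all 10 mice. Abat, which breaks down the transmitter GABA, was at 62.7% in ICR (n = 4) and 70.9% in Control (n = 4), -8.25 points apart with all mice that had a value and -5.32 without ICR mouse 105. On the higher side Mir142hg, the host gene of a blood cell microRNA, had 58.7%, 68.9%, 62.0%, 49.1% and 41.8% in the ICR mice and 28.1%, 17.1%, 36.6%, 43.0% and 28.3% in the Control mice. The mean difference of 25.5 points there was the largest of the genes named, but ICR mouse 112 lay below Control mouse 10. Tap1, a peptide transporter for antigen presentation, was at 57.4% ± 3.22 (SD, n = 5) in ICR and 47.7% ± 4.65 (SD, n = 5) in Control, Limd2 at 12.9% in ICR and 8.02% in Control and Hps4, a lysosome-related organelle gene, at 74.9% in ICR and 70.6% in Control. With CpGs measured in all 10 mice alone Hps4 differed by 1.80 points (p above 0.05) in place of 4.31.

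Genes with many measured CpGs held regions of both directions. Of all 24648 regions, 4883 had p under 0.05 lower and 809 higher in ICR. Among regions in gene bodies these shares were 20.1% and 3.26%. Gse1, with 749 CpGs, had 89 regions, 30 with p under 0.05 lower and 6 higher in ICR. Prdm16 had 71 regions, 27 lower and 5 higher, ranging from -18.4 to 15.7 points, while its 532 CpGs together were at 63.3% in ICR and 67.1% in Control. Sept9 had 53 regions, 22 lower and 2 higher, from -25.1 to 18.5 points. Camta1, a calmodulin-binding transcription factor, had 95 regions with 20 lower and 0 higher.

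Many fat cell genes had lower levels in ICR. Of the 13 measured genes of adipocyte identity, 6 had p under 0.05 lower in ICR and 0 higher, with a median difference of -4.75 points, against 22.3% lower and -1.88 points over all genes. In promoters of this list it was 2 of 7 lower and 0 higher, against 16.9% lower over all promoters. Their median of -0.448 points was smaller in size than the -1.01 of all promoters. No gene of this or any other list passed at an adjusted p under 0.05 (limma). Plin4, a coat protein of lipid droplets, had 80.3%, 77.6%, 85.2%, 82.3% and 79.3% in the ICR mice and 96.2%, 94.4%, 91.7%, 88.2% and 87.1% in the Control mice. All ICR mice were below all Control mice, and the difference was -10.6 points (SE 2.03). Zfp423, a factor that commits cells to the white fat lineage, had 59.7% ± 2.16 (SD, n = 5) in ICR and 63.4% ± 1.44 (SD, n = 5) in Control over 235 CpGs, and over those with a value in all 10 mice Zfp423 differed by -1.15 points (p above 0.05). The promoter of Plin1, the main guard of lipid droplets against lipolysis, was at 63.4%, 69.4%, 69.2% and 64.8% in the ICR mice and 83.3%, 78.6% and 70.6% in the Control mice, with no value in ICR mouse 102 and Control mice 1 and 10. The Plin1 difference of -10.8 points had p under 0.05, but it was -4.62 without Control mouse 2 (p above 0.05), -5.10 without Control mouse 5 (p above 0.05) and -5.99 without Control mouse 13 (p under 0.05). Klf15 (59.7% in ICR and 64.4% in Control), the glucose transporter Slc2a4 (52.6% in ICR and 60.5% in Control) and Ebf1 (24.0% in ICR and 33.6% in Control) had p under 0.05 as well. Ebf1 differed by -9.68 points with all mice, by -6.29 without ICR mouse 103 (p above 0.05), by -15.7 without ICR mouse 106 and by -17.0 without ICR mouse 112.

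Among 5 thermogenic genes 3 had p under 0.05 lower (60.0%), beside 22.3% of all genes. The promoter of Cpt1b, which carries fatty acids into mitochondria of muscle and brown fat, had 59.5%, 49.8%, 57.9%, 62.9% and 66.5% in the ICR mice and 73.9%, 79.1%, 70.8%, 65.4% and 73.2% in the Control mice. Kcnk3, a potassium channel of thermogenic fat, was at 50.2% ± 1.71 (SD, n = 5) in ICR and 53.8% ± 0.796 (SD, n = 5) in Control. In lipid synthesis 6 of 11 genes (54.5%) had p under 0.05 lower and 0 higher, with a median of -2.99 points. Srebf1, the transcription factor of lipogenesis, was at 48.6% in ICR and 52.7% in Control, and Dgat1, which makes triglyceride, at 36.0% in ICR and 42.2% in Control. Fasn (73.9% in ICR and 77.6% in Control), Dgat2 (54.3% in ICR and 58.0% in Control) and Acacb (66.9% in ICR and 69.6% in Control) had smaller differences. At Dgat1 the difference was -6.18 points, and -4.03 with CpGs of 20 or more reads or with values in all 10 mice.

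For lipolysis and fasting, 4 of 13 genes (30.8%) had p under 0.05 lower, with a median of -3.08 points, beside 22.3% and -1.88 points over all genes. Mgll, which cleaves the last fatty acid from glycerol, had 63.8%, 57.4%, 64.2%, 61.6% and 65.9% in the ICR mice and 70.9%, 72.2%, 68.6%, 67.3% and 69.8% in the Control mice, without overlap. Fgf21, the fasting hormone of liver and fat, had 79.8%, 80.04%, 77.9% and 77.5% in the ICR mice and 92.0%, 93.5%, 83.7% and 85.5% in the Control mice, with no value in ICR mouse 102 and Control mouse 1. The uncoupling protein gene Ucp3 was at 75.1% in ICR and 82.0% in Control, a difference of -6.92 points that was -10.6 without Control mouse 2 and -10.9 with CpGs measured in all 10 mice. Pck1, of gluconeogenesis and glyceroneogenesis, was at 85.9% in ICR and 90.5% in Control.

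In insulin, IGF and mTOR signalling 5 of 21 genes had p under 0.05 lower and 0 higher, a share close to the 22.3% of all genes, with a median of -2.52 points. In promoters it was 5 of 12 lower and 0 higher, beside 16.9% lower over all promoters, with a median of -2.94 points against -1.01. The Pik3cd promoter, of the PI3 kinase subunit of leukocytes, had 16.3%, 8.33%, 17.6%, 18.3% and 22.7% in the ICR mice and 27.7%, 28.2%, 22.8% and 25.8% in the Control mice. That of Akt1, the kinase downstream, had 32.0%, 28.9%, 40.2%, 33.4% and 45.2% in the ICR mice and 48.0%, 49.97%, 42.7%, 41.7% and 42.8% in the Control mice, and here ICR mouse 112 lay within the Control range. Without its first exon the Akt1 promoter differed by -0.367 points (p above 0.05). The Igf2 promoter was at 34.9% in ICR and 39.0% in Control, a difference of -4.02 points that was -9.50 without the first exon. The promoters of the binding protein genes Igfbp3 and Igfbp6 were at 2.54% in ICR and 5.75% in Control and at 30.6% in ICR and 37.9% in Control. Without Control mouse 5 the Igfbp3 promoter differed by -1.67 points (p above 0.05) in place of -3.21. At the gene level Igfbp6 was at 41.0% ± 4.67 (SD, n = 5) in ICR and 49.5% ± 1.64 (SD, n = 5) in Control, without overlap. Mtor (80.5% in ICR and 84.3% in Control) and Rptor (87.4% in ICR and 90.6% in Control), the core of the growth kinase complex, had p above 0.05. At Rptor p was under 0.05 without Control mouse 10 (-4.98 points), and the difference was -1.52 points without ICR mouse 103, in place of -3.17.

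Clock genes had 5 of 15 (33.3%) with p under 0.05 lower and a median of -2.30 points, beside 22.3% and -1.88 points over all genes. Nr1d1, the repressor Rev-erb alpha, had 50.8%, 47.0%, 57.2%, 54.3% and 56.6% in the ICR mice and 64.1%, 66.0%, 60.2%, 59.2% and 61.3% in the Control mice, all ICR mice being lower. Cry2 was at 49.6% ± 3.71 (SD, n = 5) in ICR and 61.6% ± 9.00 (SD, n = 4) in Control, and its Control mice spread from 51.7% to 73.5%. Per1 (69.6% in ICR and 73.5% in Control) and Dbp (21.4% in ICR and 24.4% in Control) followed. The labels do not give the hour or feeding state at which the pads were taken. Among autophagy genes 2 of 9 (22.2%) had p under 0.05 lower, among them Tfeb, the master regulator of lysosomes (56.6% in ICR and 60.8% in Control). That share was close to the 22.3% of all genes, and the median was -1.89 points, that of all genes being -1.88.

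Inflammation genes had 4 of 10 with p under 0.05 lower and 0 higher, with a median of -2.36 points, beside 22.3% lower and -1.88 points over all genes. Beside Socs3 these were Tgfb1 (52.3% ± 4.18 (SD, n = 5) in ICR and 59.8% ± 2.36 (SD, n = 5) in Control), Irf7, a factor of the interferon response (57.0% in ICR and 60.5% in Control), and Rela, a subunit of NF-kappa B (55.3% in ICR and 58.8% in Control). Of the 5 promoters of this list 2 had p under 0.05 lower and 0 higher, beside 16.9% lower over all promoters. The other 3 were higher in ICR, and the promoter median was 0.0864 points, beside -1.01 over all promoters. Of the DNA methylation machinery, Dnmt3a, a de novo methyltransferase, had 55.2%, 53.6%, 55.1%, 56.5% and 58.8% in the ICR mice and 60.9%, 61.0%, 59.1%, 59.0% and 60.4% in the Control mice over 78 CpGs, without overlap. Tet3, a demethylating dioxygenase, was at 63.3% ± 2.96 (SD, n = 5) in ICR and 67.8% ± 1.56 (SD, n = 5) in Control. The other 6 genes of this list, Dnmt3b and Uhrf1 among them, had p above 0.05, and the median of the list was -1.77 points. Its share of genes with p under 0.05 lower was 25.0%, close to the 22.3% of all genes.

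Imprinted genes, methylated on a single parental copy, had 3 of 17 genes (17.6%) at p under 0.05 lower, 0 higher and a median of -1.02 points. Over all genes 22.3% were lower and 2.14% higher at that p, with a median of -1.88 points. H19 had 74.5%, 67.8%, 67.6%, 72.7% and 76.0% in the ICR mice and 77.7%, 80.9%, 77.4%, 81.3% and 78.5% in the Control mice over 8 promoter-class CpGs, without overlap. The promoter of Mest, at 75.7% in ICR and 66.8% in Control, had p under 0.05 in the other direction, while over the whole gene, the level of the counts above, its p was over 0.05. Hox genes went both ways, with 10 of 37 (27.0%) at p under 0.05 lower and 5 (13.5%) higher. Hoxa4 had 34.2%, 31.2%, 37.4%, 41.0% and 41.2% in the ICR mice and 43.2%, 60.9%, 45.8%, 42.6% and 52.0% in the Control mice. Hoxa3 (44.0% in ICR and 53.6% in Control) and Hoxb3 (50.1% in ICR and 59.8% in Control) were lower by similar amounts. Hoxd4, in contrast, had 40.3%, 36.4%, 35.7%, 39.0% and 35.8% in the ICR mice and 31.4%, 33.9%, 34.7%, 34.3% and 35.2% in the Control mice, with all ICR mice above all Control mice; its promoter without the first exon differed by -0.197 points. Hoxa7 (31.0% in ICR and 26.8% in Control), Hoxd3 (27.0% in ICR and 23.7% in Control) and Hoxa9 (15.0% in ICR and 11.7% in Control) were higher in ICR as well. Neighbours in a Hox cluster share CpGs where their annotated parts overlap, so their values are not independent.

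Nuclear receptor genes had 9 of 23 (39.1%) with p under 0.05 lower and 2 (8.70%) higher, beside 22.3% and 2.14% over all genes. Rxra was at 49.97% ± 3.20 (SD, n = 5) in ICR and 55.4% ± 1.496 (SD, n = 5) in Control over 102 CpGs, and the thyroid hormone receptor Thra at 48.8% in ICR and 55.6% in Control. Esrra, the estrogen-related receptor of mitochondrial genes, was at 50.03% ± 6.98 (SD, n = 5) in ICR and 63.7% ± 5.11 (SD, n = 5) in Control in its promoter. Nr3c1, the glucocorticoid receptor, had a promoter at 30.3% in ICR and 44.4% in Control, with a value in 3 Control mice. Nr2f1 ran the other way, at 16.9% ± 1.10 (SD, n = 4) in ICR and 11.3% ± 2.82 (SD, n = 4) in Control. Tumour suppressor genes silenced in breast cancer had 2 of 9 (22.2%) with p under 0.05 lower, close to the 22.3% of all genes. Their median was -1.20 points, beside -1.88 over all genes. Runx3 of this list was at 45.8% ± 3.95 (SD, n = 5) in ICR and 55.8% ± 3.86 (SD, n = 5) in Control. Housekeeping genes had 1 of 9 (11.1%), and their promoters were near 0 in both groups, with medians of 0.505% and 0.626%.

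**Figure D5:**
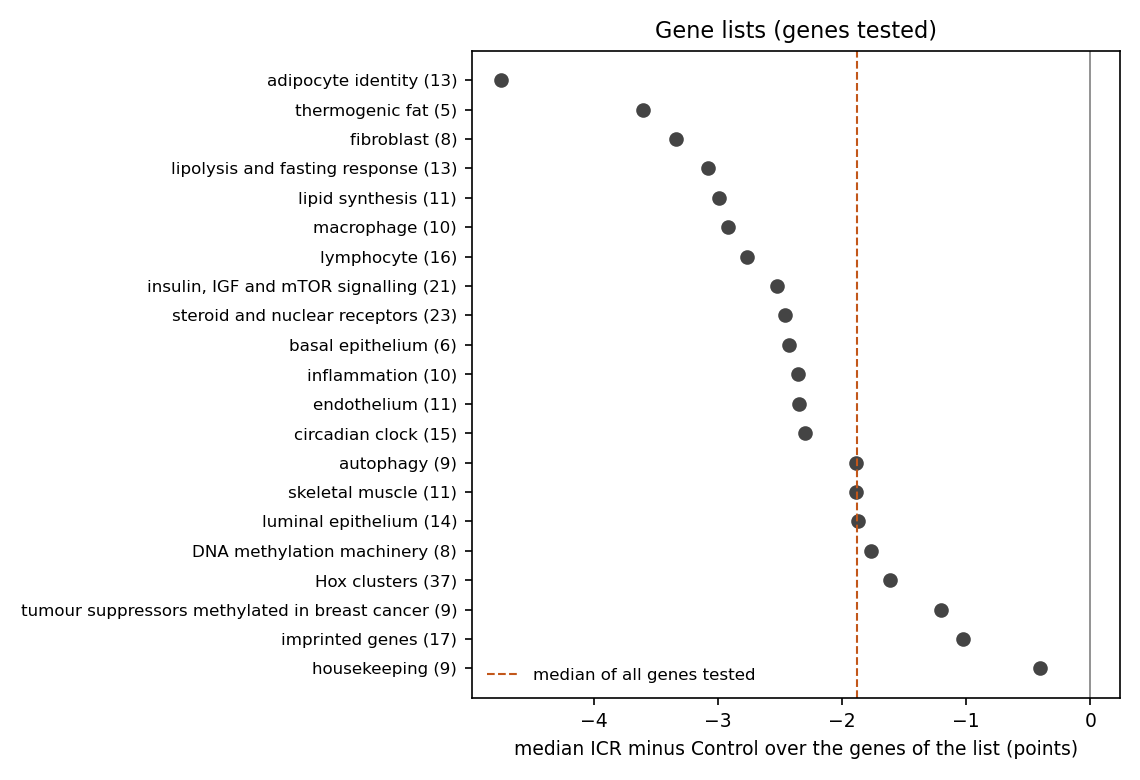
Median difference between ICR and Control in points (x axis) over the genes of each list (y axis, number of genes tested in brackets); the dashed line is the median of all genes tested. Adipocyte identity lies at -4.75 points, all genes at -1.88 and housekeeping genes at -0.41.

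Markers of the cell types a pad can hold were counted in the same way, beside 22.3% lower and 2.14% higher over all genes, and their part in the results above was not tested. For macrophage markers 3 of 10 genes had p under 0.05 lower, and their mean level was 65.5% to 68.2% in ICR and 68.3% to 70.9% in Control over the 7 genes measured in all mice. Fibroblast markers had 3 of 8 lower, at 67.1% to 72.8% and 74.9% to 77.6% over 4 genes, led by Col1a1 (55.7% ± 4.04 (SD, n = 5) in ICR and 63.3% ± 1.51 (SD, n = 5) in Control). For lymphocyte markers 3 of 16 were lower and 2 higher, and the ranges overlapped, 42.9% to 47.1% and 44.6% to 47.6% over 8 genes. Within this list the promoter of the B cell antigen Cd37 was at 38.4% in ICR and 51.7% in Control. Cd79b, of the B cell receptor, was at 28.4% in ICR and 17.4% in Control, and the promoter of Coro1a, an actin regulator of leukocytes, at 28.4% in ICR and 19.5% in Control, with a difference of 8.89 points that was 1.25 without its first exon. Shares below that of all genes were found for endothelial markers, with 1 of 11 genes lower, luminal epithelial markers, 1 of 14, and basal markers, 1 of 6. These genes were Nos3 (52.5% in ICR and 57.8% in Control), Cldn7 (10.4% in ICR and 14.0% in Control) and Itgb4 (62.3% in ICR and 66.9% in Control). Their list medians were -2.34, -1.87 and -2.43 points, beside -1.88 over all genes, and all 6 basal genes were lower in ICR. The 2 basal genes measured in all mice were at 71.7% to 73.7% in ICR and 74.4% to 78.3% in Control, without overlap. Muscle markers had 1 of 11 lower and 1 higher. The muscle promoters measured in all mice, 5 in number, had means of 34.5% to 36.1% in ICR and 32.5% to 34.4% in Control. Of the 6 muscle promoters tested, Myog and Tnni2 (84.0% in ICR and 73.2% in Control) were higher in ICR, both with p under 0.05 (limma). The other 4 were lower, 1 of them with p under 0.05, and the median of the 6 was -0.477 points.

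A list of 20 promoters named earlier in these data for the MCR diet had 11 with p under 0.05 lower and 3 higher in ICR, with a median of -8.75 points. Over all promoters 16.9% were lower and 2.45% higher at that p, with a median of -1.01 points. The choice of the list used the same Control mice, so it gives no independent evidence of direction. Agap2, a GTPase-activating protein on that list, had 34.0%, 27.6%, 37.1%, 44.8% and 46.1% in the ICR mice and 63.3%, 71.6%, 52.8%, 48.6% and 57.4% in the Control mice over 68 promoter CpGs.

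The direction of most lists depended on the mean level. With each library centred, 14 of the 22 gene-level medians, all below 0 as deposited, and 15 of the 21 promoter-level medians below 0 turned positive, and the median of all genes went to 0.926 points.

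The authors' deposited table holds a comparison headed IER_vs_CON. The labels do not spell out IER, and whether it stands for ICR is not stated. Among the CpGs compared here the authors' deposited table gives a q-value at 76906 and a q under 0.05 at 7158 (9.31%), of which 6129 are lower and 1029 higher. At all of these 7158 CpGs the sign was that of ICR minus Control here, on libraries of the same series. At 98.7% of them p was under 0.05 in the limma fit on mice, although none passed its adjusted threshold. In the authors' deposited table the CpG in the 3'UTR of Hhatl differs by -20.5 points with a q of 5.84e-07.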

How the data were processed

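RRBS of mouse mammary fat pad DNA gave, per the labels' protocols, MspI fragments of 40 to 170 bp. The authors processed reads with Bismark on mm10, per the submitters' processing notes; versions, filters and settings are not given in the sources used here. The authors deposited a methylation fraction (beta value, 0 to 1) per CpG and library, multiplied here by 100. Coverage was deposited as an average signal in reads over 21 libraries, and the authors' comparison as a difference in percentage points (another unit, per the file headers) with a p-value and q-value. Columns of other samples were not present (0).

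Libraries were matched to mice by name in the sample title and grouped by label. Counts per library are not used here, so a count model that had been planned where counts exist was replaced by its fallback, limma on the level, with every mouse weighted alike, no counts inferred from the fractions, and no binomial intervals. The fit has 1 term per group, moderated variance, trend and robust off, two-sided tests, Benjamini-Hochberg adjustment over all features of a level and a threshold of 0.05 on the adjusted p. Region, promoter and gene levels pool at least 3 CpGs as the mean of CpG means plus the mouse's mean deviation, where it has at least 0.5 of the CpGs; genes that share CpGs share values. Class means use CpGs measured in all 10 mice, with exact permutation tests over 252 arrangements.

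Named features are the 10 higher and 10 lower of largest difference among calls, or of smallest p with fewer calls, 5 each for CpGs, and up to 4 members per gene list; the text gives part of them. Some list members beyond the 4 were added after their values were seen. The comparison, the members and the 22 gene lists were chosen with earlier results of these data known. RefSeq promoter windows were added after the data were seen. Libraries of Obese mice 27, 28 and 40 and LFD mouse 46 were left out wherever other groups enter. Alternatives changed the coverage minimum, completeness, scale, centring, fit, region and promoter definitions and left out each mouse in turn. The fit was also run on simulated data, with independent noise per feature and no shift between libraries. That run therefore does not cover the shift in mean level seen here. Software was R 4.3.3, limma 3.58.1, Python 3.11.15, pandas 2.3.3, numpy 2.4.6 and matplotlib 3.10.9.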

Additional observations from a re-analysis of the deposited data

Results flagged for a closer look

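In 242 groups of 4 or 5 mice behind the named promoters, genes and regions, 11 had a mouse far from the rest of its group by Dixon's criterion; chance flags about 1 in 20 groups. At the promoter of Pyroxd2, Control mouse 13 was at 34.8%, the nearest Control mouse at 39.7%. At that of Prtn3, Control mouse 5 was at 13.8% and the nearest at 10.0%. At the promoter of Cdc42ep5, ICR mouse 112 had 31.1% and the nearest 38.5%, and at that of Coro1a, ICR mouse 103 had 39.1% and the nearest 27.2%. Over whole genes ICR mouse 103 stood apart at Zfp423, with 55.9% against 60.0%, at Limd2, with 15.6% against 12.7%, and at Rela, with 52.7% against 55.7%. At Irf7 Control mouse 10 had 57.8% and the nearest 60.8%, and at Ebf1 Control mouse 5 had 28.9% and the nearest of 4 Control mice 34.8%. In the Sept9 region ICR mouse 112, at 42.3%, lay above the next ICR mouse at 31.3%, and Control mouse 10, at 46.9%, lay below the next Control mouse at 57.6%.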

How the results depend on the processing

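No paired analysis was possible because the groups share no replicate (mouse) numbers. Read depth per library is unknown, which limits what single values can show. The mean difference kept its direction throughout, at -2.37 to -3.43 points without each mouse in turn, and at -3.04 points (exact permutation p = 0.0714, past no threshold) over all CpGs that each library has. CpGs passing went from 0 to 5 with a value in all 10 mice. Regions passing went from 0 to 1 at a coverage minimum of 20, 548 with all 10 mice, 21 with gaps of 50 bp and 290 with 5 or more CpGs. Promoters passing went from 1 to 0 with the spread shared with the other groups, 4 with centred libraries, 12 with all 10 mice, 5 without first exons, 6 with 10 or more CpGs and 0 in the RefSeq windows, which were added after the data were seen and fitted once. Leaving out each mouse gave 0 to 1280 regions, 0 to 15 promoters and 0 to 1 genes, the 1 without ICR mouse 105, with the largest counts without Control mouse 10 and ICR mouse 112. It gave 0 to 6 level bins and 0 to 19 chromosomes, with 0 bins without Control mouse 2 and 0 chromosomes without Control mouse 1 or 2. With the first exon left out the promoters of Kcnj11 and Hoxd4 reversed, to -1.48 and -0.197 points, and the differences at the promoters of Sept9, Akt1, Socs3, Adcy7 and Coro1a shrank to -1.80, -0.367, -0.0845, -0.0322 and 1.25 points. With centred libraries the Acacb gene went to 0.190 points and the Cebpa promoter to 2.48 points. For all of these the cause was not tested, beyond the smaller set of CpGs or mice that each alternative uses by its construction.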
